A study of Mus musculus with 16 samples.

Results

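The olfactory receptor gene intervals were the 1120 rows of the deposited table whose gene symbol begins with Olfr, out of 37255 intervals in all. They made up 3.01% of the 37242 nuclear intervals. The measurements were ATAC-seq read counts, where a transposase cuts and tags open chromatin, from flow-sorted retinal ganglion cells of female mice. The labels gave 5 libraries labelled as control, called naive, and 11 libraries from mice with experimental autoimmune encephalomyelitis (EAE), an inflammatory demyelinating disease that can reach the optic nerve. The EAE libraries were presymptomatic (n = 4), from disease onset (n = 3) or from disease peak (n = 4). EAE was induced at 7 to 8 weeks of age, and each library started from about 15000 to 50000 cells. Strain, genotype, the gate of the sort and the number of mice per library are not stated in the labels. The spread between libraries may therefore be partly technical.

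Olfactory receptors are G protein-coupled receptors of the nose, encoded by the largest gene family of the mouse and mostly by a single coding exon. Each olfactory sensory neuron expresses a single receptor allele, and the genes lie in clusters that are regarded as silent in most other cells.

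The counted window of a member did not follow its promoter. The deposited RPKM values imply an interval length equal to the span minus 2000 bp, with the sign dropped. Read as a gene trimmed by 1000 bp at each end, this gives the inner gene body for spans above 1000 bp. For spans under 1000 bp it gives the whole gene plus a flank on each side, with a median flank of 58 bp. The 300 bases around the annotated start, 250 before and 50 after, are shown for the 3 members of highest density and for a member with no read in any library. They come from RefSeq on GRCm38.p6, and capitals mark the bases that fell inside the counted window. Olfr1495 lay at chr19:13768094-13768393 on the plus strand and Olfr1121 at chr2:87371284-87371583 on the plus strand. Olfr1324 lay at chrX:50426445-50426744 on the minus strand and Olfr247 at chr10:129975500-129975799 on the minus strand.
Olfr1495: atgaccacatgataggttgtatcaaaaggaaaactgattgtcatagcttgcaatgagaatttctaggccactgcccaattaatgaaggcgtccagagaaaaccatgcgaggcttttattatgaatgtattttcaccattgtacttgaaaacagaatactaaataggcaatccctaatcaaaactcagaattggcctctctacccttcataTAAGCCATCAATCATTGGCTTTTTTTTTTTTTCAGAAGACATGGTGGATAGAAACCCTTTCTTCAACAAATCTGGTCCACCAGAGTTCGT
Olfr1121: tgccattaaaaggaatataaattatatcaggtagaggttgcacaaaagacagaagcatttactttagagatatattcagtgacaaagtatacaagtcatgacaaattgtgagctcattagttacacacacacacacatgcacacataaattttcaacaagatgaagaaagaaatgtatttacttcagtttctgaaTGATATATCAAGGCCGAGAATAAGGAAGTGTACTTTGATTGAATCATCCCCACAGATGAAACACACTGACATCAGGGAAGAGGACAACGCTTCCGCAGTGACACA
Olfr1324: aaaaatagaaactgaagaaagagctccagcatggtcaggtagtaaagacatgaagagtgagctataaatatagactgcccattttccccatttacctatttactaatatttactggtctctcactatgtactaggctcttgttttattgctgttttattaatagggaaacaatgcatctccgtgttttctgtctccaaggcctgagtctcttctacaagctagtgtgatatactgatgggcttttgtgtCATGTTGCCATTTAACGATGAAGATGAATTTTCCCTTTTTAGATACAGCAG
Olfr247: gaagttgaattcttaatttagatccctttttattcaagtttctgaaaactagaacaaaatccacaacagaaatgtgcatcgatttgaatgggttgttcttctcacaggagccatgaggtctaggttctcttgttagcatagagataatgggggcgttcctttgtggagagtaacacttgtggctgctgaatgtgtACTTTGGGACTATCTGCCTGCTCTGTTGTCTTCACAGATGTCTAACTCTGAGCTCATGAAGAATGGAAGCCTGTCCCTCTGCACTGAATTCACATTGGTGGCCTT

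In these 4 sequences the annotated start was the ATG of the coding region, 50 bases before the end. The windows of Olfr1495 and Olfr1121 took in 90 and 105 of the 300 bases, that of Olfr1324 took in 51 and that of Olfr247 took in 105. Under that reading all 4 windows included the start codon. The other never-read members, Olfr1506 and Olfr856-ps1, are not shown, and the window of Olfr1506 took in none of its 300 bases.

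The libraries held 1.58 M to 15.1 M nuclear reads within intervals, and mitochondrial intervals took 8.36% to 64.7% of all interval reads. Most counts were even: of the nonzero values of the members, 75.2% were even, with 335 values of 1, 2738 of 2, 373 of 3 and 1965 of 4. Of all nonzero nuclear values 58.9% were even, as counting both reads of a pair would give, so a pair was taken as the unit of sampling. All 15 ganglion cell marker genes had reads, with Pou4f2 and Pou4f3 at 0 in 2 libraries each. Rod genes were covered too: the 9 with an interval of at least 500 bp had a median density of 2.28 reads per kb of interval per 1000000 nuclear reads, against 1.05 for the 15 ganglion cell genes. Single genes of both lists overlapped, from 0.515 (Pde6a) to 5.38 (Gnat1) among the rod genes and from 0.537 (Nefh) to 3.34 (Pou4f3) among the ganglion cell genes.

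The members were short and similar in build. A single exon made up 890 of the 1120 (79.5%), against 9.14% of the other nuclear intervals, and 782 of those 890 had a span divisible by 3, as an open reading frame without untranslated ends has. Spans were under 1000 bp in 751 members, 1000 to 2000 bp in 163 and above 2000 bp in 206. The RefSeq table held 1112 of the symbols, 1099 of them as protein-coding genes and 12 as pseudogenes. Among those 1112, the gene start on GRCm38.p6 equalled the deposited one in 93.8%. No source used here names the build of the deposited table.

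Over all 16 libraries the members received 171070 reads, with a median of 90 reads per member. Their share of nuclear interval reads was small and varied within the naive and peak groups. In the naive group the share was 0.141%, 0.103%, 0.276%, 0.254% and 0.120% in replicates 1 to 5. In the presymptomatic group it was 0.165%, 0.204%, 0.185% and 0.181% in replicates 1 to 4. Naive replicates 3 and 4 stood above the other 3 naive libraries, and the presymptomatic libraries lay between these sets.
At onset the share was 0.118%, 0.152% and 0.109% in replicates 1 to 3, and at peak 0.144%, 0.140%, 0.253% and 0.130% in replicates 1 to 4. All 3 onset libraries lay below all 4 presymptomatic ones and within the naive range, and peak replicate 3 stood alone above the other 3 peak libraries. The means were 0.179% ± 0.0800 (SD, n = 5) for naive, 0.184% ± 0.0159 (SD, n = 4) for presymptomatic, 0.126% ± 0.0225 (SD, n = 3) for onset and 0.167% ± 0.0576 (SD, n = 4) for peak. The naive and peak values overlapped every other group. Counted as pairs, the 95% Wilson interval of a share reached at most 0.00797 percentage points to a side, far less than the spread between libraries. Such intervals address counting error only, and they are too narrow if reads copied by PCR, which are not independent molecules, were counted.

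**Figure D1:**
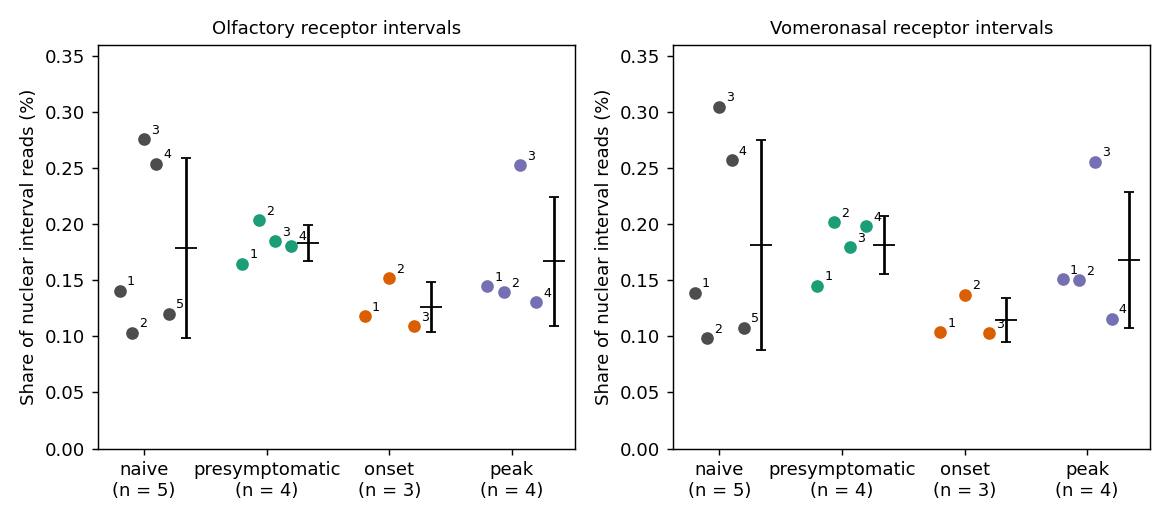
Share of nuclear interval reads (percent, vertical axis) in olfactory receptor intervals (left) and vomeronasal receptor intervals (right) for each of the 16 libraries by stage; numbers are replicates and bars show the mean ± SD. In both panels naive 3, naive 4 and peak 3 are the highest libraries, with olfactory receptor shares of 0.276%, 0.254% and 0.253%.

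The same 3 libraries were the highest for another receptor family of the nose. The 337 vomeronasal receptor intervals, whose products detect pheromones in a separate organ of the nose, took 0.305% of nuclear reads in naive 3, 0.257% in naive 4 and 0.256% in peak 3, and 0.0982% to 0.202% in the other 13 libraries. Intervals of chromosome X that hold no nose receptor also had their 3 highest pooled densities in these libraries, at 1.56, 1.35 and 1.49 reads per kb per 1000000 nuclear reads, against 0.587 to 1.05 in the other 13. The 383 intervals of zinc finger genes named Zfp had their 3 lowest shares there, at 0.912%, 0.871% and 0.895%. None of the 3 was among the 3 deepest libraries, and 1 of them was among the 3 with the largest mitochondrial share. The part of these features in the receptor share was not tested.

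Many members had no read in a given library, most of all in shallow ones. The percentage of the 1120 members without a read was 26.4, 12.1, 11.2, 15.1 and 32.1 in naive replicates 1 to 5 and 10.4, 8.57, 12.4 and 40.5 in presymptomatic replicates 1 to 4. It was 39.6, 10.6 and 10.4 in onset replicates 1 to 3 and 38.6, 34.6, 24.3 and 58.7 in peak replicates 1 to 4. The highest value belonged to peak 4, which was also the shallowest library, and the peak group held 4 of the 6 shallowest. Group means were 19.4% ± 9.38 (SD, n = 5) for naive, 18.0% ± 15.1 (SD, n = 4) for presymptomatic, 20.2% ± 16.8 (SD, n = 3) for onset and 39.0% ± 14.4 (SD, n = 4) for peak.
With each library thinned, pair by pair, to the depth of the shallowest, the means became 52.0% ± 13.3, 46.7% ± 3.76, 59.0% ± 3.84 and 53.1% ± 8.19 in the same order, and the peak group no longer stood apart. Naive 3 and naive 4 then had 37.7% and 38.1% of members without a read, against 55.4% to 64.4% in the other 3 naive libraries. Other nuclear genes with spans under 1000 bp had thinned values of 42.8% to 53.5%. The members had fewer empty intervals than those genes in 6 libraries and more in the other 10. The windows were of unlike length, with a median of 1836 bp for those genes and 1058 bp for the members. A longer window is less often empty at equal density, so these counts do not compare density.

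**Figure D2:**
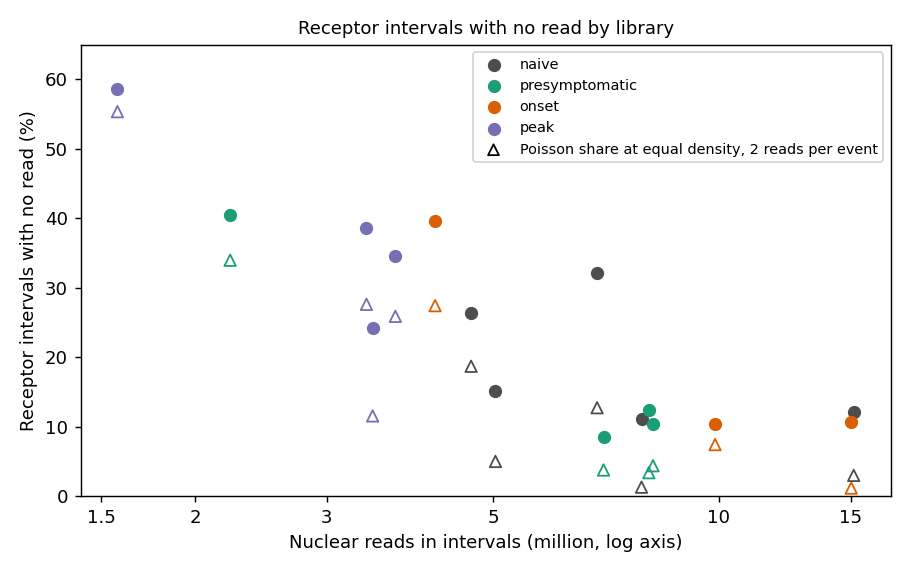
Percent of the 1120 receptor intervals with no read (vertical axis) against nuclear reads in intervals (M, log axis), 1 filled point per library. Open triangles give the share left empty by the Poisson formula for read pairs at equal density over all members; the observed share lies above it in 16 of 16 libraries, by the least in onset 3 (10.4% against 7.44%).

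With pairs spread at equal density over all members, the Poisson formula gives 1.18% to 55.4% of members empty, and the observed share was above it in 16 of 16 libraries. In naive 3 the values were 11.2% observed and 1.30% by the formula, and in peak 4 they were 58.7% and 55.4%. Over all libraries only 3 members (0.268%) had no read at all, against 2.24% of nuclear intervals, and 129 members (11.5%) had a read in every library.
The 3 were Olfr247, Olfr1506 and Olfr856-ps1. Zero reads over the 106 M nuclear reads of all libraries allow a density of up to 0.0535 for Olfr247 and 0.0111 for Olfr1506, at 3 pairs. The 300 bases around the start of Olfr1506 were identical (100%) to those of Olfr1565, whereas the closest match of Olfr247 shared 37.0% of bases. Bases were compared at equal positions without gaps, and the rest of each gene was not compared. The 37.0% therefore does not show that Olfr247 has no close copy.

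Density was computed as reads per kb of interval per 1000000 nuclear reads for the 1091 members with an interval of at least 500 bp, and medians of density for any class leave out shorter intervals, while the sizes of classes count them. The median member had a mean density of 0.748, above the median of all nuclear intervals (0.626) and of vomeronasal (0.540), trace amine (0.477) and Zfp (0.483) intervals. The middle 80% of members spanned 0.330 to 1.49, close to the 0.303 to 1.47 of all nuclear intervals. The pooled density of all members was 0.796 ± 0.258 (SD, n = 16), against 0.806 for all nuclear intervals together, a value fixed by the scaling. Members lay above that value in 6 of 16 libraries and above vomeronasal receptors in 16 of 16. The family was thus covered near the level of the average gene interval, and its median exceeded the median of all intervals in 8 of 16 libraries.

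Density was lower in long members and higher in members far from other genes. The median was 0.804 for the 751 members under 1000 bp, 0.769 from 1000 to 2000 bp and 0.592 above 2000 bp. Other genes under 1000 bp had a lower median, 0.569, but a far longer upper tail, with a 90th percentile of 5.48 against 1.56 for the members. Their windows were mostly flank, with a median span of 164 bp and a median interval of 1836 bp. For the members under 1000 bp these medians were 942 and 1058 bp. The 333 members within 50 kb of a gene that is no nose receptor had a median of 0.578, the 427 at 50 to 200 kb had 0.752 and the 360 beyond 200 kb had 0.897. The 16 members with a pseudogene suffix had a median of 0.481. The members of these classes share clusters, so the classes are not independent of each other.

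Sequence similarity between members bears on where reads can be placed. Of the 935 members with a RefSeq promoter, 19 had an upstream sequence at least 90% identical to another gene's, and their median density was 0.457. The 32 members at 70 to 90% had 0.771 and the 884 under 70% had 0.754, so the median did not fall steadily with identity. Olfr8 and Olfr1354, which match each other at 99.7%, had only 13 and 12 reads over all libraries. Olfr596 and Olfr603, with identical upstream sequences, had 52 and 62 reads. These pairs were named after their values were seen, and no source used here says how reads with several alignments were treated.

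The upstream sequences were poor in G and C. The middle 50% of 939 member promoters had a GC content of 31.7% to 39.7%, against 45.7% to 61.7% over all 32851 promoters of the same length. The median number of CpG was 1 against 7. The annotated start was an ATG in 72.8% of member promoters and in 5.83% of all, so most of these windows hold sequence upstream of the coding region rather than of a mapped transcription start. Motifs were searched on both strands. The homeodomain core TAATGA, of the type bound by Lhx2 in olfactory neurons, was in 28.9% of member promoters and 9.78% of all, and TAATTA was in 18.6% and 5.29%. CCCNNGGG, the palindromic core bound by Ebf factors, was in 3.09% and 13.7%. TATAAA was in 40.9% and 13.6%, and GGATTA, a core bound by photoreceptor homeodomain factors, in 10.8% and 7.06%. Each motif rich in A and T was more frequent in the members and the one rich in G and C less frequent, alongside the difference in base composition. Of the sequences printed above, Olfr1495 and Olfr1121 held TAATGA, Olfr1121 and Olfr1324 held TATAAA, and Olfr247 held none of the 5. Across 911 members, Spearman's rank correlation between promoter GC content and density was -0.179, and across 21786 other genes it was 0.0789, as a description over genes that share libraries and clusters.

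Joining neighbours at most 1 Mb apart gave 49 clusters, of which 22 had at least 10 members and held 1031 of the 1120, and 9 were single genes. The largest cluster, at chr2:85330967-90401674, held 225 members with a pooled density of 0.940 ± 0.414 (SD, n = 16). The next were the 126 members at chr7:102476773-105369317 with 0.970 ± 0.319 and the 99 at chr9:37711348-40188094 with 0.777 ± 0.298. The 66 members at chr7:106677534-108894405 had 1.22 ± 0.491 and the 63 at chr19:11828077-13919972 had 0.810 ± 0.273. The 3 largest held 40.2% of all members, so any sum over the family follows them.

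Among the 22 clusters with at least 10 members, mean density ran from 0.276 to 1.43. The highest of these were the 15 members at chr7:86268730-86695384 with 1.43 ± 0.736 (SD, n = 16), the 20 at chr1:172956768-174449602 with 1.32 ± 0.354 and the 66 on chromosome 7 above. The lowest of these 22 were the 10 members at chr10:78498053-79035802 with 0.276 ± 0.165, the 12 at chr13:21072349-21703944 with 0.348 ± 0.154 and the 58 at chr10:128989914-130211128 with 0.440 ± 0.165. Each of the 3 highest exceeded each of the 3 lowest in 15 of 16 libraries. The exception was peak 1. The clusters were picked by their means over these same libraries, so this order largely follows from the choice. Clusters of fewer members ranged more widely, from 0.153 for 3 members at chr17:33176416-33269676 to 4.59 for the 5 at chrX:49683504-50426494, which include Olfr1324. In the lowest chromosome 10 cluster of the 22, 41.2% of the values per member and library were 0, against 13.3% in the highest cluster.
Genes other than nose receptors lay between the members of some clusters. The 9 such intervals in the lowest cluster had a pooled density of 0.766, above its receptors, and the 23 in the chromosome 1 cluster had 1.05, below its receptors. The chromosome 1 cluster includes Olfr419, with a density of 9.73, which raises its pooled value and its rank. By median its receptors had 0.961, against 0.649 for the 23 and 1.16 for the 126 receptors of chromosome 7. The highest cluster contained none.

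**Figure D3:**
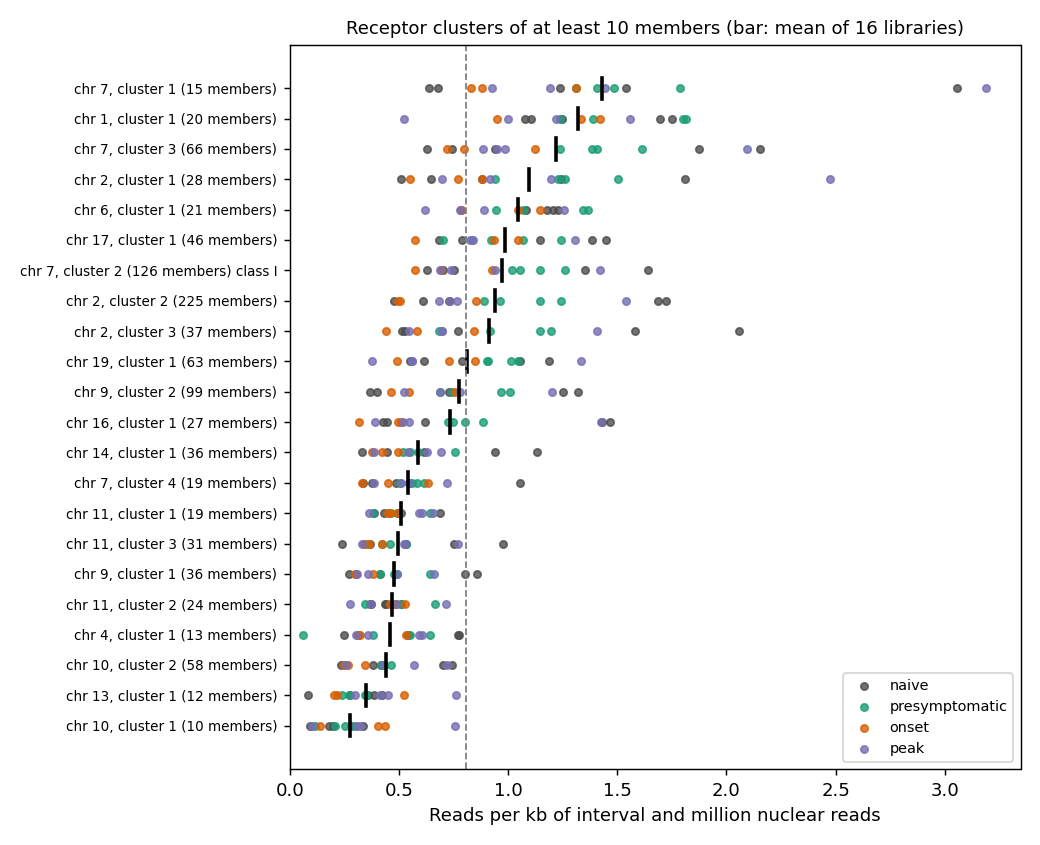
Pooled density (reads per kb of interval per 1000000 nuclear reads, horizontal axis) of the 22 receptor clusters with at least 10 members; points are the 16 libraries coloured by stage, black bars are their means and the dashed line is the 0.806 of all nuclear intervals. Means run from 0.276 to 1.43, and in the highest cluster naive 3 and peak 3 lie at 3.06 and 3.19.

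The cluster at chr7:102476773-105369317 holds the beta-globin genes and was taken as the class I cluster, the receptors related to those of fish. Its 126 members had a median density of 1.16, against 0.710 for all other members, and its pooled density exceeded theirs in 16 of 16 libraries. It was below the class II cluster that begins 1.31 Mb further on in 15 of 16 libraries. Of the other clusters of chromosome 7, the 15 members at chr7:86268730-86695384 were higher than the class I cluster, at 1.43. The rest were lower, with 0.711 for the 8 members at chr7:6439902-6570919 and 0.411 for the 2 at chr7:84853571-84916728. The 19 at chr7:140162010-140705191 had 0.539 and the 2 at chr7:99735145-99768130, upstream of the class I cluster, had 0.418. Of the 5 beta-globin intervals inside the cluster, 2 had no read in any library.

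By chromosome, the 290 members of chromosome 2 had a median of 0.907 and the 238 of chromosome 7 had 1.14, whereas the other genes of these chromosomes had 0.591 and 0.716. On 8 chromosomes the order was reversed. On chromosomes 10, 11, 13 and 15 the members had medians of 0.371 (68 members), 0.385 (84), 0.325 (13) and 0.299 (9), against 0.632, 0.477, 0.677 and 0.576 for the other genes. The 25 members of chromosome 4 had 0.432 against 0.630, the 2 of chromosome 3 had 0.382 against 0.749, the 5 of chromosome 8 had 0.439 against 0.662 and the 28 of chromosome 1 had 0.692 against 0.699. The 6 members of chromosome X had the highest median, 1.57, and the other genes of chromosome X had 0.875. The pooled density of those other genes varied by an SD of 0.300 across libraries on chromosome X, against 0.0722 on chromosome 11 and 0.0379 on chromosome 3.

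A few members were covered far above the rest. Density exceeded 5 times the member median in 15 members, and the 10 highest took 3.11% to 13.3% of all member reads in a library. Olfr1495 on chromosome 19 was the highest at 19.1 ± 7.23 (SD, n = 16). It had 15.6, 15.2, 22.2, 8.98 and 21.8 in naive replicates 1 to 5 and 23.9, 20.1, 26.0 and 15.5 in presymptomatic replicates 1 to 4. It had 25.1, 28.4 and 7.20 in onset replicates 1 to 3 and 8.80, 15.1, 32.0 and 19.5 in peak replicates 1 to 4. All 4 groups overlapped, and onset 3 was the lowest library. The 8 receptors within 100 kb of it had a median of 0.706 and a maximum of 1.15, so none of them came near it.

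Olfr1121 on chromosome 2 had a density of 17.7 ± 9.91 (SD, n = 16). Its values were 11.8, 13.5, 21.2, 9.22 and 34.4 in the naive libraries, 16.5, 21.6, 25.1 and 8.93 presymptomatic, 20.8, 24.3 and 2.97 at onset and 7.83, 12.3, 12.4 and 39.7 at peak. The lowest and the highest library were onset 3 and peak 4, and the groups overlapped. The 6 neighbours within 100 kb had a median of 0.862.
Olfr1324, the third, is the chromosome X member at chrX:50425496-50426494 and had 17.1 ± 9.26 (SD, n = 16). Its values were 9.84, 18.1, 11.5, 12.5 and 22.4 in the naive libraries, 16.8, 19.5, 21.2 and 16.1 presymptomatic, 24.4 and 6.47 in onset 2 and onset 3, with onset 1 between them, and 2.36, 16.2, 16.2 and 44.4 at peak. No receptor lay within 100 kb of it, and the other 5 members of chromosome X had 0.824 to 2.09.

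The remaining 7 of the 10 were Olfr94 (11.9 ± 5.97, chromosome 17), Olfr419 (9.73 ± 4.01, chromosome 1), Olfr308 (7.02 ± 4.13, chromosome 7) and Olfr676 (6.77 ± 2.09, chromosome 7), followed by Olfr357 (5.50 ± 2.71), Olfr1024 (5.21 ± 4.14) and Olfr1284 (4.62 ± 2.34) on chromosome 2 (SD, n = 16). Each of the 10 exceeded the pooled density of all other members in 16 of 16 libraries, except Olfr357, which did so in 15. The 10 were picked by their means over these same libraries, which favours such an order. Olfr452 and Olfr251, the next below, had 4.62 and 4.35. Their distance to other genes varied: the closest gene that is no nose receptor lay 704 bp from Olfr94, 1439 bp from Olfr419 and 397025 bp from Olfr308. Olfr676, with a span of 4587 bp, was the only one of the 10 with a span above 2000 bp.

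**Figure D4:**
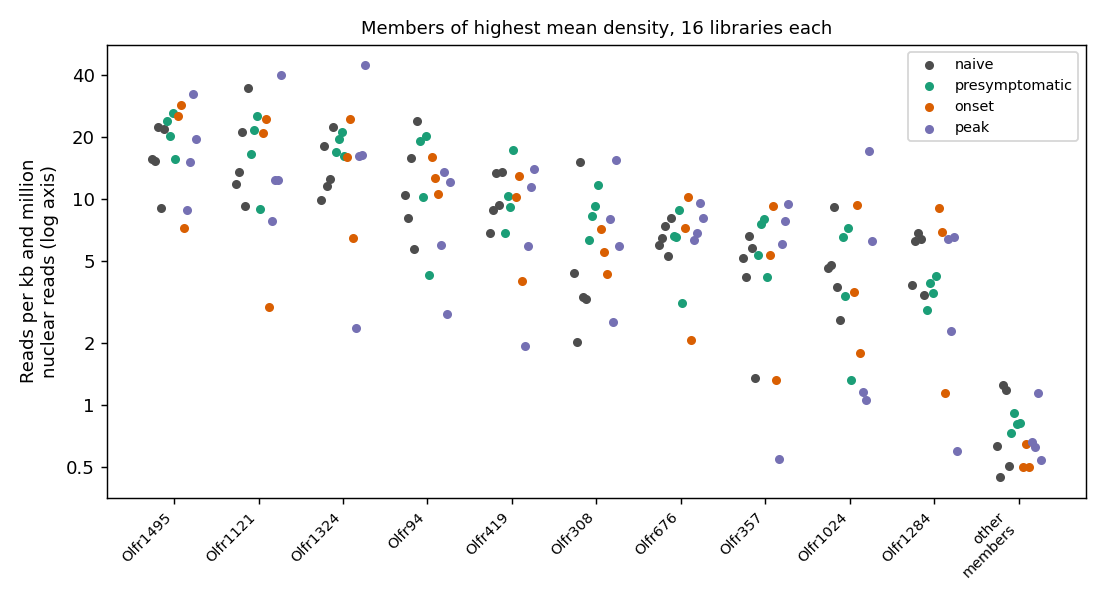
Density (reads per kb of interval per 1000000 nuclear reads, log axis) of the 10 members of highest mean density and, at the right, the pooled density of all other members; each point is a library, coloured by stage. The first 3 members range from 2.36 to 44.4 over the libraries, and the stages overlap for each of them.

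No difference between stages was detected for these 10. All entered the test of any difference between the 4 groups, edgeR's quasi-likelihood F test with Benjamini-Hochberg adjustment over all 29902 tested intervals, and their smallest unadjusted p was 0.462, with an adjusted p of 1.00. In the 3 comparisons with naive none of them had an unadjusted p under 0.05.

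Members with described roles outside or inside the nose had densities of 0.528 to 1.69. Olfr78, a short-chain fatty acid receptor of kidney vessels and carotid body, had a density of 0.858 ± 0.269 (SD, n = 16) and reads in every library, but its interval overlapped another gene's, so some reads may be shared. Olfr558, a related receptor of blood vessels, had 0.915 ± 0.535. Olfr544, which binds azelaic acid and has been studied in liver and fat, had 0.687 ± 0.443. Olfr1393, which has been studied in renal glucose handling, had 0.758 ± 0.262.
Among the receptors of classic nose studies, Olfr17 had 1.16 ± 0.978, Olfr151 had 0.926 ± 0.907, Olfr160 had 0.528 ± 0.643, Olfr2 had 0.752 ± 0.502, Olfr73 had 0.875 ± 0.710 and Olfr1507 had 0.543 ± 0.426 (SD, n = 16). Of the 14 receptors on this list, Olfr90 ranked highest, at 70 of the 1091 with a density, with 1.69 ± 1.86. Its naive densities were 0.00, 3.67, 0.27, 2.91 and 6.55, and its peak densities were 0.00, 0.00, 0.61 and 0.00. The naive libraries alone thus ran from no read to the highest value of any library. Olfr545 (0.684 ± 0.574), Olfr16 (0.687 ± 0.595) and Olfr99 (0.540 ± 0.480) had no read in 4 libraries each, as had Olfr90. The interval of Olfr16, like that of Olfr78, overlapped another gene's.

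Each of the 3 disease stages was compared with the naive group, as the design implies. After the filter on low counts, 498 of the 1120 members (44.5%) were tested. With edgeR's quasi-likelihood test and Benjamini-Hochberg adjustment over all tested intervals, 0 members were called at an adjusted p under 0.05 in any of the 3 comparisons or in the F test, where percent called over all intervals was 0. The smallest adjusted p of a member was 0.972, at onset. DESeq2 and limma-voom with quality weights also called 0 members.

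In the presymptomatic libraries 9 of 498 members (1.81%) had an unadjusted p under 0.05 by edgeR, against 1.16% of all tested intervals, 5 higher and 4 lower. Over all intervals 0.351% were higher and 0.813% lower at this p. DESeq2 gave 12 (2.41%), against 1.73% of all. Limma-voom gave 67 (13.5%), all 67 higher, against 5.44% of all and 2.91% higher. The median log2 fold change of the members was -0.03, beside -0.06 over all tested intervals, and 264 of 498 members (53.0%) were lower, against 58.4% of all. Limma-voom put the median at 0.62. Scaling by library totals put it at 0.38, where the median of all intervals moved to 0.26. By edgeR it was 0.37 without naive 3 and 0.13 without naive 4, so the direction turned with the tool, the scaling and single libraries.
The smallest p values among higher members belonged to Olfr351, Olfr960 and Olfr1445. Olfr351, on chromosome 2, had 0.427, 0.686, 0.536, 0.422 and 0.473 counts per 1000000 reads (CPM) in the naive libraries and 1.40, 1.23, 1.36 and 3.26 in the presymptomatic ones. These groups did not overlap, and the log2 fold change was 1.73 ± 0.71 (SE; unadjusted p = 0.0220, adjusted p = 1.00, edgeR quasi-likelihood). CPM were taken over the reads of all tested intervals, mitochondrial ones included, and scaled by the edgeR factor of each library. They are thus not on the nuclear scale of the densities. Among lower members the smallest p values belonged to Olfr1176, Olfr110 and Olfr924, with log2 fold changes of -3.69 ± 1.25, -1.51 ± 0.55 and -2.10 ± 1.01 (SE). Olfr1176 had a read in 1 of 4 presymptomatic libraries and in 4 of 5 naive ones.

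At onset most tested members had negative fold changes, and none was called. Of 498, 36 (7.23%) had an unadjusted p under 0.05 by edgeR, 1 higher and 35 lower, against 4.95% of all tested intervals. The 35 lower ones were 7.03% of members, and lower ones were 3.38% and higher ones 1.57% of all. DESeq2 gave 62 (12.4%), 61 of them lower, against 6.13% of all and 4.53% lower. Limma-voom gave 24 (4.82%), 18 of them lower (3.61%), against 5.68% of all and 2.97% lower, so its total was below the share of all intervals. The log2 fold change was below 0 in 417 members (83.7%), against 51.4% of all, with a median of -0.71 beside -0.01 over all. With no filter 840 of 1117 members were lower, a smaller share than with the filter, and 277 were higher, against 17709 of all 36420 intervals higher.
The median was closer to 0 without either of the naive libraries of high receptor share. It was -0.34 without naive 3, where 12 of 436 members (2.75%) and 2.12% of all intervals had an unadjusted p under 0.05. It was -0.49 without naive 4, where 23 of 467 (4.93%) and 3.26% of all did. Without onset 2 it was -0.98, with 61 of 667 (9.15%) and 6.78% of all. Without onset 3, the library with the 8.36% mitochondrial share, it was -0.64. Scaling by library totals put it at -0.07, where the median of all intervals moved to 0.60, so the members' median stayed below that of all intervals. Limma-voom, which gives each library a weight, put it at -0.13.
Other receptor families of the nose had the same sign: 189 of their 207 tested intervals were lower, with a median of -0.82. Rod genes had the opposite sign, with 9 of 9 tested genes higher, a median of 1.04 and 7 unadjusted p under 0.05, and 0 of the 9 called. The summed rod share of nuclear reads ran from 0.0152% to 0.0932% across libraries, and its part in the receptor values was not tested. In bulk libraries a different mixture of cells and a different state of each cell cannot be told apart.

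**Figure D5:**
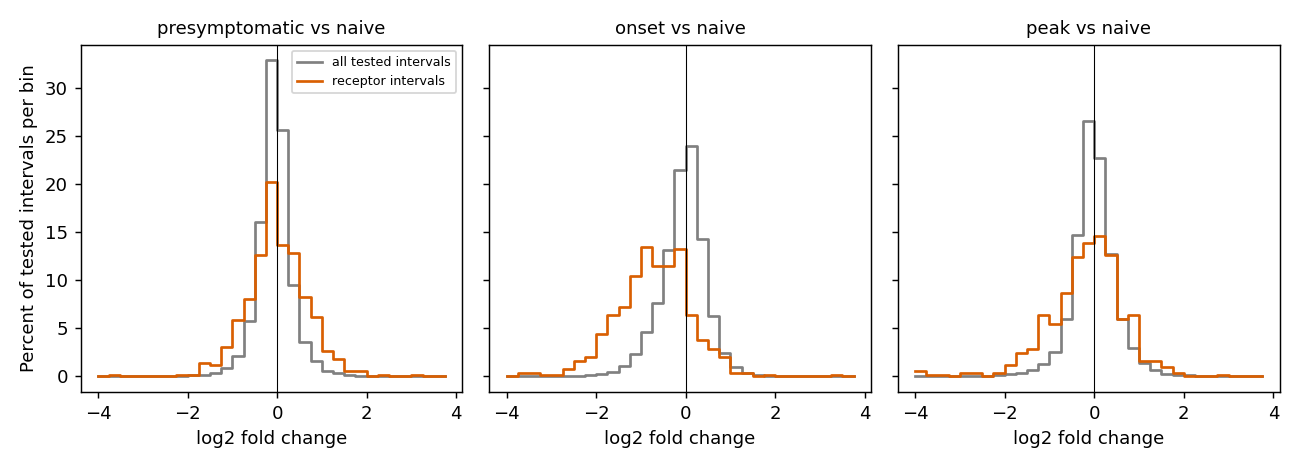
Distribution of edgeR log2 fold changes (horizontal axis, bins of 0.25, values beyond the range placed in the end bins) for the 498 tested receptor intervals and all 29902 tested intervals, as percent of each set, in the 3 comparisons with naive. At onset the receptor curve lies to the left, with a median of -0.71, and in the other comparisons its median is -0.03 and -0.10.

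The members with the smallest p at onset were lower ones. Olfr741, on chromosome 14, had 6.30, 2.95, 10.0, 9.91 and 5.52 CPM in the naive libraries and 0.879, 4.21 and 1.57 at onset, which overlap through naive 2 and onset 2. Its log2 fold change was -1.57 ± 0.48 (SE; unadjusted p = 0.00281, adjusted p = 0.972, edgeR quasi-likelihood). Olfr1228 had 1.07, 0.514, 6.43, 3.58 and 1.58 in the naive libraries and 0.502, 0.513 and 0.184 at onset, with all onset values below all naive ones. Its log2 fold change was -2.72 ± 0.84 (SE), and naive 3 and 4 were its highest naive libraries. For Olfr613, in the class I cluster, the log2 fold change was -1.80 ± 0.61 (SE), and naive 3 and 4 were again its highest naive libraries, at 5.44 and 5.38 CPM. The higher members with the smallest p were Olfr960 (3.29 ± 1.38), Olfr429 (1.80 ± 1.00) and Olfr286 (1.32 ± 0.80), and Olfr429 and Olfr286 had unadjusted p values of 0.0826 and 0.109.

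At peak 14 of 498 members (2.81%) had an unadjusted p under 0.05 by edgeR, 1 higher and 13 lower, against 3.61% of all tested intervals. Over all intervals 1.80% were higher and 1.81% lower. DESeq2 gave 20 (4.02%), 18 of them lower, against 4.59% of all and 2.18% lower. Limma-voom gave 16 (3.21%), 13 of them higher, against 3.16% of all and 1.79% higher. The totals of all 3 tools were near or below the share of all intervals. The median log2 fold change was -0.10, beside -0.03 over all, and 276 members (55.4%) were lower, against 52.9% of all. It was -0.55 without peak 3, where 39 of 475 members (8.21%) and 6% of all intervals had an unadjusted p under 0.05, 0.26 without naive 3, 0.07 without naive 4 and 0.02 without peak 4. Its direction thus also turned with single libraries.
Olfr1277 had 0.343 to 2.91 CPM in the 5 naive libraries, with naive 3 the highest, and 0, 0, 0 and 0.311 at peak, with no overlap. Olfr90 and Olfr1322 had reads in only 1 of 4 peak libraries, peak 3. Their fitted log2 fold changes were -4.35 ± 1.30, -3.88 ± 1.25 and -3.64 ± 1.23 (SE), values that depend on the prior count where a group is nearly empty. Olfr1353, Olfr1323 and Olfr960 had the smallest p among higher members, with log2 fold changes of 1.93 ± 0.91, 1.62 ± 0.79 and 2.77 ± 1.44 (SE). Olfr960 was thus among the 3 in each comparison, which share the naive libraries, where it had reads in 2 of 5.

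In the F test across the 4 groups 15 of 498 members (3.01%) had an unadjusted p under 0.05, against 3.16% of all tested intervals. The smallest belonged to Olfr1277, Olfr110 and Olfr1228. DESeq2's likelihood ratio test gave 30 members (6.02%), against 4.71% of all, and limma-voom 56 (11.2%), against 7.04%.

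Genes that act with the receptors in the nose had medians near that of all intervals. The 15 genes of odour transduction, from the G protein subunit Gnal to the cyclase Adcy3 and the channel subunits, had a median density of 0.770 over the 13 with an interval of at least 500 bp, and 0 of 13 tested were called in any comparison, with 1 unadjusted p under 0.05, at onset. Cnga4, a subunit of the olfactory cyclic nucleotide-gated channel, had 21.7 ± 5.35 (SD, n = 16), more than any receptor. Gnal had 0.736 ± 0.0781, Adcy3 had 0.721 ± 0.165 and Omp, a marker of mature olfactory neurons, had no read in 13 libraries, with a counted interval of only 89 bp. Of 27 genes of receptor choice and trafficking, 25 were present, with a median of 0.542, and 0 of 25 were called, with 1 unadjusted p under 0.05 at onset and 1 at peak. Lhx2, a homeodomain factor that acts at receptor enhancers, had 1.17 ± 0.369, its cofactor Ldb1 had 1.46 ± 0.419, Lbr, whose loss from olfactory neurons is linked to receptor silencing, had 0.549 ± 0.145, and the chaperone Rtp1 had 0.467 ± 0.356.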

How the data were processed

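ATAC-seq reads were counted per gene interval in 16 libraries. Per the submitters' processing notes, cutadapt, HISAT2 and HTSeq were used, with no version or role. The genome build, filters and duplicate handling are not given in the sources used here. Raw read counts and RPKM values per interval are what the authors deposited. The deposited RPKM values were used only to recover each interval's length and each library's total, which fitted to a relative deviation of at most 9.15e-14.

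Members were the rows named Olfr. Members and gene lists were chosen with earlier results of these data known. Density was reads per kb of interval per 1000000 nuclear interval reads, for intervals of at least 500 bp. Clusters joined members at most 1 Mb apart. Shares carry 95% Wilson intervals on pairs of reads. Groups came from the labels, which do not say whether libraries were separate mice, so p values measure only the spread between these libraries. Counts were tested in R 4.3.3 with edgeR 4.0.16 (TMM scaling, filterByExpr with a minimum count of 10 and total of 15, quasi-likelihood test, all 4 groups in the fit, Benjamini-Hochberg adjustment, threshold 0.05). The SE of an edgeR log2 fold change was not fitted. It was taken as the size of the fold change divided by the square root of its F statistic, and is approximate. The code was tested on simulated data. DESeq2 1.42.0 and limma 3.58.1 served as alternatives, with other scalings and filters, thinning to equal depth, a replicate block and each library left out in turn. The named members were the 10 of highest mean density, the 3 of smallest p in each direction of each comparison and in the F test, 14 receptors with described roles, and the 5 largest, 3 highest and 3 lowest clusters. The members without any read and the pairs of near-identical upstream sequence were named after their values were seen. After the data were seen, 3 alternatives were added: the other tools for the median fold change, counts divided by 2 and rounded up, and thinning by pairs. Promoter sequences were taken from RefSeq on GRCm38.p6.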

Additional observations from a re-analysis of the deposited data

Results flagged for a closer look

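In 120 groups of values checked, 12 had a library far from the rest of its stage, where chance gives about 6 (5%). The onset group had too few libraries for this check and was left out. Peak 3 had an olfactory receptor share of 0.2527%, far above the next peak library at 0.144%. Its pooled density of the members, 1.204 reads per kb per 1000000 nuclear reads, stood above the next at 0.688. Its members without a read after thinning by pairs, 40.96%, stood below the next at 56.1%. Presymptomatic 4 had 40.54% of members without a read, against 12.4% in the next library of its stage. After thinning by pairs presymptomatic 2 had 41.16%, below the next at 48.0%.

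Olfr1121 had a density of 39.69 in peak 4, above the next peak library at 12.4. Olfr308 had 15.12 in naive 3, above the next naive library at 4.39. Peak 3 was also far above its stage in 4 clusters: 1.423 against 0.543 at chr16:58760152-59362240, 1.307 against 0.840 at chr17:37085191-38336097, 1.538 against 0.764 at chr2:85330967-90401674 and 2.092 against 0.986 at chr7:106677534-108894405. Naive 4 had 1.056 against 0.544 in the cluster at chr7:140162010-140705191. The cause of these values was not tested, and those of peak 3 are not independent of each other.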

How the results depend on the processing

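No member was called in any of the 4 tests under any alternative, with each library left out (0 to 0) included. The smallest adjusted p of a member over the alternatives was 0.879 in the presymptomatic comparison, 0.239 at onset, 0.671 at peak and 0.389 in the F test. For the members named by smallest p, 424 fold changes under the alternatives kept their direction and stayed uncalled, and 324 F tests of those and of the 10 members of highest density stayed uncalled. The former were picked by p in these same libraries, which the alternatives reuse, so a kept direction largely follows from the choice. The 14 receptors with described roles were not followed through the alternatives.

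As a share of all interval reads, mitochondrial ones included, the members took 0.0808% in the naive, 0.105% in the presymptomatic, 0.0826% in the onset and 0.0784% in the peak group. As a share of the library totals that the RPKM values imply they took 0.0379%, 0.0495%, 0.0401% and 0.0377%. Both denominators are larger by construction, but the order of the groups changed too. The onset mean, the lowest of the groups as a share of nuclear reads, lay above the naive mean on both. Onset 3, at 0.100% of all interval reads and 0.0491% of library totals, then lay above presymptomatic 1 (0.0903% and 0.0445%) and presymptomatic 3 (0.0945% and 0.0438%). Onset 1 and onset 2 stayed below every presymptomatic library on both. Members without a read made up a larger percentage after thinning: 39.1%, 33.9%, 44.6% and 45.9% read by read, and 52.0%, 46.7%, 59.0% and 53.1% pair by pair, for naive, presymptomatic, onset and peak.

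With each library of a group left out in turn, the share ran from 0.155% to 0.198% (naive), 0.177% to 0.190% (presymptomatic), 0.113% to 0.135% (onset) and 0.138% to 0.179% (peak). The percentage without a read ran from 16.2 to 21.4, 10.4 to 21.1, 10.5 to 25.1 and 32.5 to 44.0 in that order. The median density ran from 0.558 to 0.780, 0.742 to 0.819, 0.465 to 0.522 and 0.354 to 0.700. The median log2 fold change ran from -0.20 to 0.37 presymptomatic, -0.98 to -0.34 at onset and -0.55 to 0.26 at peak. By limma-voom it was 0.62, -0.13 and 0.11, and the cause was not tested. With counts divided by 2, 132 members were tested and the medians were -0.01, -0.57 and -0.04.

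With the replicate number as a block, 0 members were called in each of the 4 tests. By edgeR 3, 27, 12 and, in the F test, 10 of 498 members had an unadjusted p under 0.05. Of all 29902 tested intervals 282, 1854, 784 and 1022 did, a larger share than of the members in each test. Of 21 pairs of libraries with the same number 6 correlated above 0.1 (median r -0.00586). Pairs with different numbers were not examined, so whether the numbers mark a pairing or batch was not settled. Cluster counts were 54 and 42 at gaps of 0.5 and 2 Mb. Depth limits single members: the median was 90 reads over all 16 libraries, and 498 of 1120 entered the tests.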
